A study of Mus musculus with 13 samples.

Results

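Valine and isoleucine are 2 of the branched-chain amino acids, and the 10 genes described here encode enzymes of their mitochondrial breakdown after the shared ketoacid dehydrogenase, down to succinyl-CoA. The genes were chosen by name: Acad8, Acadsb, Echs1, Hibch, Hibadh, Aldh6a1 and Hsd17b10 of the amino acid arms, and Pcca, Pccb and Mut of the propionate route. All 10 had a row in the table of 11761 genes, and all 10 were among the 11643 genes tested. Each symbol occurred once in the table.

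RNA came from epididymal white fat of Adipoq-NuTRAP mice on the C57BL/6J background kept for 10 weeks on chow or on a high-fat diet (HFD), and each diet has 3 libraries. The chow held 6.4% fat by weight, and the composition of the HFD is not given in the sources used here. All 6 RNA libraries share the NuTRAP allele, which tags ribosomes with GFP and nuclei with mCherry. Tagging follows activity of the Adipoq promoter, so fat cells are the labelled source. Ribosome-bound RNA was pulled down from homogenized fat with an antibody against GFP. The other 7 samples of the series (5 for H3K27ac, 2 for PPARG) were not analysed here. Age and sex are not stated, and nothing in the labels ties a library to an animal, so each p-value here is set against the spread of libraries alone, and that spread may be technical.

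In valine breakdown, the branched acyl-CoA made by the ketoacid dehydrogenase is oxidized by isobutyryl-CoA dehydrogenase (Acad8), hydrated by the short-chain enoyl-CoA hydratase (Echs1), freed of its CoA by Hibch, and oxidized by Hibadh and then by Aldh6a1 to propionyl-CoA. In isoleucine breakdown, Acadsb takes the place of Acad8, Echs1 hydrates the product, Hsd17b10 oxidizes it, and a thiolase releases acetyl-CoA and propionyl-CoA. Propionyl-CoA carboxylase, built from the subunits Pcca and Pccb, carboxylates propionyl-CoA with biotin, an epimerase follows, and the cobalamin-dependent mutase Mut forms succinyl-CoA for the citric acid cycle. Fat cells are known for active breakdown of branched-chain amino acids, which supplies carbon for lipid synthesis.

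The promoters of 5 members are shown first: those of Hibch, Hibadh, Aldh6a1 and Pcca, whose RNA passed the test, and that of Hsd17b10, whose RNA did not. Their windows are the 5 of the 11 found that lie outside every annotated gene span. Each line gives the 250 bases before a transcript start, 5′ to 3′ in the gene's own direction, from RefSeq on GRCm38.p6. Capitals mark matches on either strand to any of 5 motifs: the nuclear receptor core AGGTCA, the CCAAT box CCAAT, the GC box GGGCGG, the YY1 core ATGGCG and the NRF1 core CGCATGCG.
Hibch, chr1:52844788-52845037, plus strand: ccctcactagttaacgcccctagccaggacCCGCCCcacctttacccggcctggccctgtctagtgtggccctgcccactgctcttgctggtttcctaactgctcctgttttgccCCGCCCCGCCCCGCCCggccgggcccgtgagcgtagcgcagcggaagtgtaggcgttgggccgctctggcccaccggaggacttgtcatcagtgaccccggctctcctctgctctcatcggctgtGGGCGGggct
Hibadh, chr6:52640301-52640550, minus strand: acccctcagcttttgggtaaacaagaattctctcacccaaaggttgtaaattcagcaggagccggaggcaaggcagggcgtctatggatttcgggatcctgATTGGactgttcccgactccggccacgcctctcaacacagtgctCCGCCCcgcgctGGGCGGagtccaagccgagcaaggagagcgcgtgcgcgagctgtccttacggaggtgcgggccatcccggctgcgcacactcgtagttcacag
Aldh6a1, chr12:84451025-84451274, minus strand: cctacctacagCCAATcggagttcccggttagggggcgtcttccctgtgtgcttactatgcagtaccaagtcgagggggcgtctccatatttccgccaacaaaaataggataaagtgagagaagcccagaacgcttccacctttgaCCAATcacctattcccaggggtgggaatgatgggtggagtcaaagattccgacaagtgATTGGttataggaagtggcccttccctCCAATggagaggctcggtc
Pcca, chr14:122484115-122484364, plus strand: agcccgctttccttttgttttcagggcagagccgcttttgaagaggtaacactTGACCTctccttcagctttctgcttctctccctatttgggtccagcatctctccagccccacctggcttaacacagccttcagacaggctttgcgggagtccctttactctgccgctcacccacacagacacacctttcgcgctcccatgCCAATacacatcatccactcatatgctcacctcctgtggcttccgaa
Hsd17b10, chrX:152001646-152001895, plus strand: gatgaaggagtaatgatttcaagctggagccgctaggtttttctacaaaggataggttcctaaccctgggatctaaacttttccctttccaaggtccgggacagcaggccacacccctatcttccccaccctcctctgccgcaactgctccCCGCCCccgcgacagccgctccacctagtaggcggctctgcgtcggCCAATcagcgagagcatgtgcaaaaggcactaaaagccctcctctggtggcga

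RefSeq promoter windows were matched for 9 of the 10 members, 11 windows in all, since Aldh6a1 and Pcca have 2 each. The other 6 windows reach into a gene: that of Echs1 lies wholly within the span of Paox, and that of Acadsb shares 168 bases with Ikzf5. GC boxes stood in 7 of the 11 windows, from 7 members, where 57.8% of the 11114 windows of genes in the table hold one. CCAAT boxes also stood in 7 of the 11, from 5 members (34.3% of windows of genes in the table). The Aldh6a1 window printed above held 4 CCAAT boxes and no GC box, and the Hsd17b10 window held 1 of each. The second Pcca window, not printed because it lies within the gene's own span, held 2 GC boxes and 1 CCAAT box. AGGTCA lay in 3 of the 11 windows, those of Echs1, Pcca (printed above) and the second of Aldh6a1, against 10.8% of the windows of genes in the table. The YY1 core was found at Acadsb (8.76% of such windows), in the bases shared with Ikzf5, and the NRF1 core at Pccb (3.19%). The Pccb window runs 56 bases into the gene's own annotated span, and its NRF1 match lies in those bases. Matches of 1 motif may overlap each other, as in the GC boxes of Acadsb, and no binding was measured at these windows.

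Levels are given as CPM, read counts scaled to the library's effective size, obtained by reversing the deposited log2 values. Effective size, read from the steps between low values, was 23200000 and 32400000 reads for chow replicates 1 and 2, 7430000 for chow replicate 3, and 32000000 to 39400000 for the HFD libraries. Chow replicate 3 was therefore the shallowest, and its residual ribosomal RNA (Rn45s) stood at 23170 CPM against 4068 to 12503 CPM in the others. Each member had at least 381 reads in every library. Of 30 adipocyte marker symbols 28 had a row in the table, with a summed level of 50763 to 76718 CPM in chow and 43366 to 49567 CPM in HFD.

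Nearly the whole route was lower in HFD. Of the 10 members, 9 were lower in HFD and 0 were higher by limma at an adjusted p below 0.05, where 16.0% of all tested genes were lower and 19.1% higher. The members' median log2 fold change (HFD minus chow, on log2(CPM + 1)) was -0.74, against -0.004 over all tested genes, whose interquartile range ran from -0.34 to 0.41. For the same 9 members every HFD library lay below every chow library, as it did for 25.0% of all tested genes. Summed over the 10 members, the level was 3604, 4107 and 3985 CPM in chow replicates 1, 2 and 3 and 1994, 2148 and 2088 CPM in HFD. The number of genes lower in HFD over the whole table, 1863, fell to between 1162 and 1740 when 1 library was left out. It was lowest without HFD replicate 3, where 8 members were still lower.

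**Figure D1:**
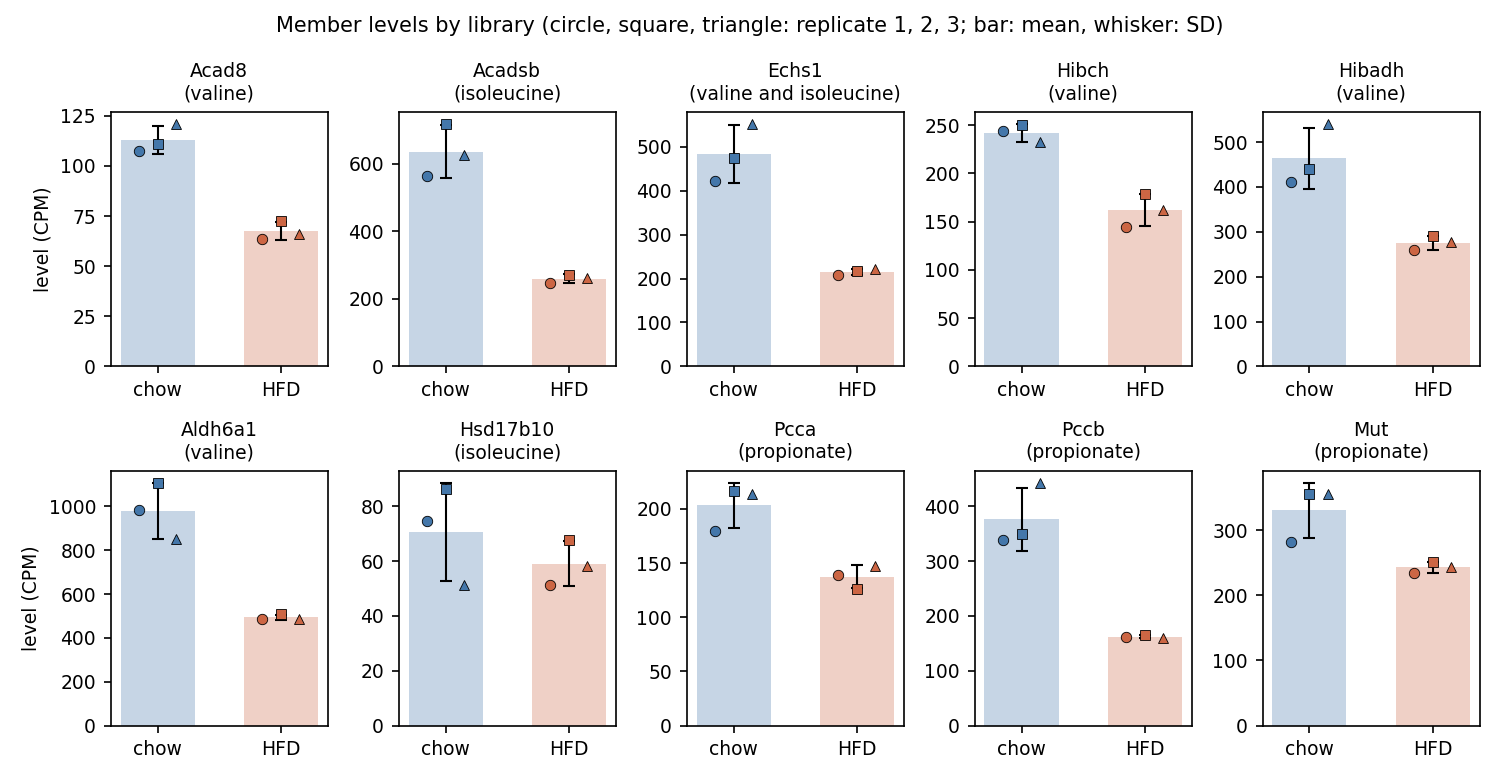
Levels of the 10 members in CPM in each of the 6 libraries, 1 panel per gene with its own axis from 0, with symbols for replicates, bars for the mean and whiskers for the SD (n = 3 per diet). In every panel but Hsd17b10 the HFD symbols lie below all chow symbols, and Aldh6a1 spans 849 to 1105 CPM with chow against 484 to 508 CPM with HFD.

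The dehydrogenases that open each arm were both lower in HFD, the isoleucine enzyme by more. Acadsb, the short/branched-chain acyl-CoA dehydrogenase of isoleucine, had 564, 719 and 626 CPM in the chow libraries and 247, 271 and 263 CPM in the HFD libraries. Its HFD libraries lay close together, at 40.9% of the chow mean (636 ± 78.0 to 260 ± 11.9 CPM, SD, n = 3). Acadsb had the lowest log2 fold change of the members (-1.28, SE 0.13, limma adjusted p 0.000129), and 1.97% of all tested genes had a lower one. Acad8, the isobutyryl-CoA dehydrogenase of valine, had 108, 111 and 121 CPM in the chow libraries and 63.6, 72.5 and 66.3 CPM in the HFD libraries. It fell by 0.74 on the log2 scale (SE 0.12, limma adjusted p 0.00154), with no overlap between the diets. On GRCm38.p6 Acadsb spans chromosome 7, 131410601 to 131446211, and Acad8 spans chromosome 9, 26974138 to 26999571.

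Echs1, the hydratase that both arms use and that also serves fatty acid oxidation, fell to 44.7% of its chow mean. Its level was 422, 474 and 553 CPM in the chow libraries and 208, 218 and 221 CPM in the HFD libraries (log2 fold change -1.15, SE 0.13, limma adjusted p 0.000242). Every HFD value was under the lowest chow value. The gene spans chromosome 7, 140105710 to 140116421, and its span overlaps that of Paox, a polyamine oxidase gene on the other strand. Because the library kit does not mark strand, reads over any exon bases the genes share could not be told apart by strand. Whether their exons overlap was not examined. Paox itself had 13.7 to 16.3 CPM in chow and 7.41 to 7.52 CPM in HFD.

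The 3 enzymes that finish valine breakdown were lower too, Aldh6a1 by the most. Hibch, the hydrolase that releases 3-hydroxyisobutyrate from CoA, had 244, 251 and 232 CPM in the chow libraries and 145, 179 and 162 CPM in the HFD libraries. Its coefficient of variation in chow, 3.84%, was the lowest of the members, and it fell by 0.58 (SE 0.12, limma adjusted p 0.00592). Hibadh, the dehydrogenase of 3-hydroxyisobutyrate, had 410, 440 and 541 CPM in the chow libraries and 260, 290 and 278 CPM in the HFD libraries. Chow replicate 3 was the high one there, and the fall was 0.74 on the log2 scale (SE 0.14, limma adjusted p 0.00333). Aldh6a1, the methylmalonate semialdehyde dehydrogenase that yields propionyl-CoA, had 982, 1105 and 849 CPM in the chow libraries and 484, 508 and 488 CPM in the HFD libraries. Its mean went from 979 ± 128 to 494 ± 13.0 CPM (SD, n = 3), a log2 fold change of -0.98 (SE 0.14, limma adjusted p 0.000727). Hibch lies on chromosome 1 (52845038 to 52920986), Hibadh on chromosome 6 (52546230 to 52640300) and Aldh6a1 on chromosome 12 (84430717 to 84451024).

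Hsd17b10, the 3-hydroxy-2-methylbutyryl-CoA dehydrogenase of isoleucine, was the exception. It had 74.5, 86.2 and 51.3 CPM in the chow libraries and 51.3, 67.6 and 58.1 CPM in the HFD libraries, so the diets overlapped and chow replicate 3 was the lowest of its diet. Its log2 fold change came to -0.23 (SE 0.20, limma adjusted p 0.387), with a 95% interval of -0.68 to 0.21 that includes falls as large as those of Hibch or Pcca. Without chow replicate 3, the shallow library, it was -0.45 (limma adjusted p 0.0539), without chow replicate 2 it was -0.08 (0.801) and without HFD replicate 1 it was -0.14 (0.676). Over the 16 alternatives the adjusted p ran from 0.0539 to 0.801. The gene spans chromosome X, 152001896 to 152004442. Its protein also works in mitochondrial RNase P beside Trmt10c, which fell by 0.65 on the log2 scale (24.6 ± 1.64 to 15.4 ± 1.98 CPM, SD, n = 3, limma adjusted p 0.0114).

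**Figure D2:**
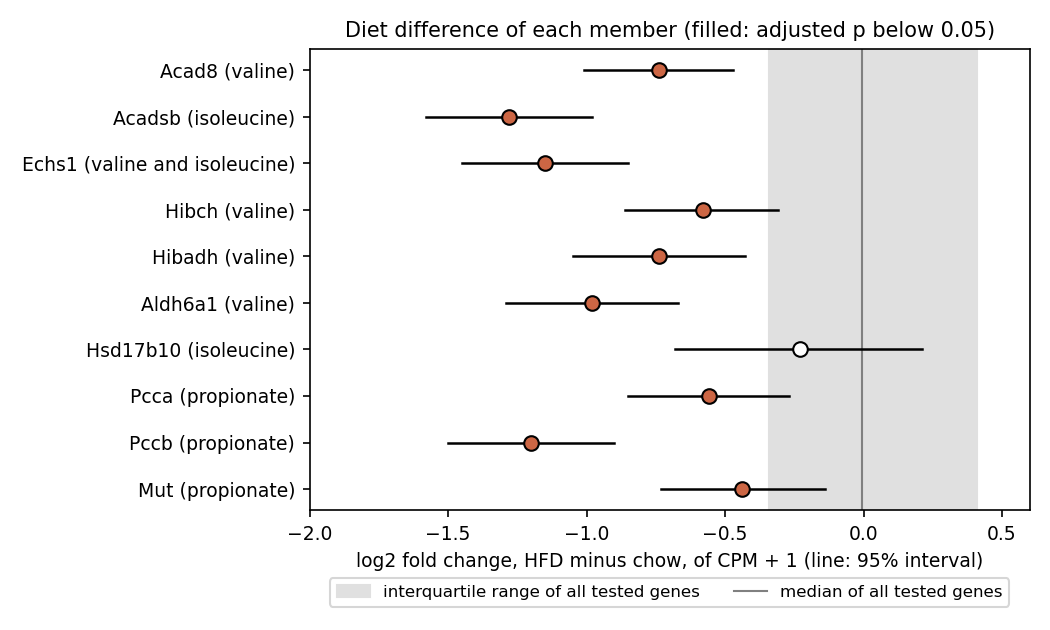
Log2 fold change of each member (HFD minus chow, of CPM + 1) with its 95% interval, in the order of the reactions, over the median and interquartile range of the 11643 tested genes. Filled points passed an adjusted p of 0.05, and the interval of Hsd17b10 (-0.68 to 0.21) is the only one that reaches 0.

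Along the propionate route the falls were unequal. Pccb, the carboxyltransferase subunit of propionyl-CoA carboxylase, had 338, 350 and 443 CPM in the chow libraries and 162, 165 and 160 CPM in the HFD libraries. The HFD libraries lay close together, and the gene fell to 43.1% of its chow mean (log2 fold change -1.20, SE 0.13, limma adjusted p 0.000211). Pcca, the biotin-carrying subunit, had 180, 217 and 214 CPM in the chow libraries and 139, 126 and 147 CPM in the HFD libraries. It was also lower in every HFD library but by less, to 67.6% of its chow mean (log2 fold change -0.56, SE 0.13, limma adjusted p 0.00872). Mut, the methylmalonyl-CoA mutase, had 282, 355 and 355 CPM in the chow libraries and 234, 251 and 244 CPM in the HFD libraries. The diets did not overlap, and the fall of 0.44 (SE 0.13, limma adjusted p 0.029) was the smallest of the 9.

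The call on Mut is the least firm of the set. It was lost without chow replicate 2 (limma adjusted p 0.0932), chow replicate 3 (0.0522), HFD replicate 1 (0.0848), HFD replicate 2 (0.0668) or HFD replicate 3 (0.089), with log2 fold changes between -0.46 and -0.38, and held without chow replicate 1 (0.0155). Pccb spans chromosome 9 (100982032 to 101034940), Pcca chromosome 14 (122484365 to 122889944) and Mut chromosome 17 (40934685 to 40961990). The span of Pcca holds 4 other annotated genes, 2 of them pseudogenes, and none of the 4 has a row in the table.

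A scaling factor applied to a whole library leaves ratios within it as they are, so 4 pairs of members were compared that way. They were chosen by their place in the pathway, with earlier results of these data known. The height of a ratio depends on the genes' lengths and is not read here, only its shift between diets. The log2 ratio of Pcca to Pccb was -0.91, -0.69 and -1.05 in chow and -0.22, -0.39 and -0.12 in HFD, a shift of 0.64 toward the alpha subunit with no overlap. For Acad8 over Acadsb it was -2.38, -2.69 and -2.36 in chow and -1.94, -1.89 and -1.97 in HFD, a shift of 0.54, also without overlap. Each of these pairs gave p = 0.1 in the exact two-sided permutation test, the smallest that 3 against 3 libraries allow, and 0.2 after Benjamini-Hochberg adjustment over the 4 pairs. For Hibch over Hibadh the shift was 0.15 (exact permutation p = 0.5) and for Mut over Pcca 0.12 (exact permutation p = 0.2), and in both pairs the diets overlapped.

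**Figure D3:**
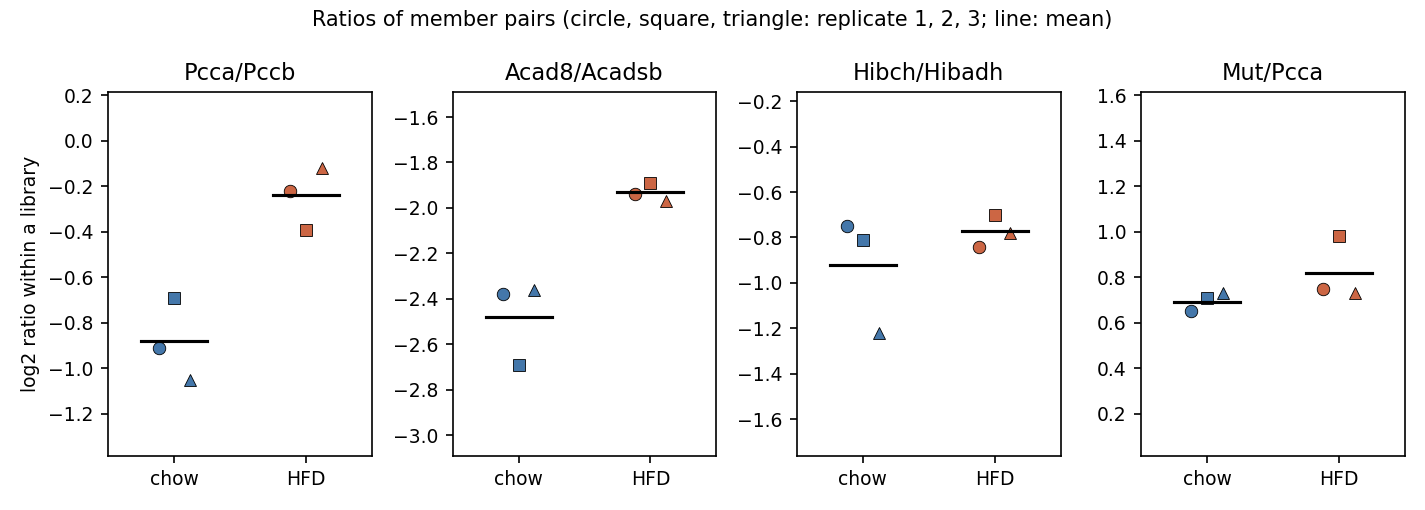
Log2 ratio of 2 members within each library, for 4 pairs, with symbols for replicates and lines for the mean (each panel spans 1.6 log2 units). The pairs were chosen by their place in the pathway, with earlier results of these data known. Chow and HFD separate for Pcca/Pccb (means -0.88 and -0.24) and Acad8/Acadsb (-2.48 and -1.93) and overlap for the other pairs.

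Members also differed in how evenly they lay within a diet. The coefficient of variation ran from 3.84% to 25.2% in chow and from 1.75% to 13.9% in HFD, and it was smaller in HFD for 8 of the 10, Acad8 and Hibch being the exceptions. Among chow libraries replicate 1 held the lowest value for 7 members, and among HFD libraries replicate 1 was lowest and replicate 2 highest for 8 members each. The same counts were not made over all tested genes, so they are not read as particular to the members. Across the 6 libraries each of the 9 lowered members had a Pearson r of 0.943 to 0.998 with the mean standardized profile of the 10, and Hsd17b10 had 0.493. These r values describe 6 libraries that form 2 diet groups, and each member is part of that profile.

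Other genes on or around these steps, some of which serve other pathways, did not move as 1 block. Of 10 tested, 4 were lower and 2 higher, with a median log2 fold change of -0.22. Acat1, the mitochondrial thiolase that ends isoleucine breakdown, fell from 374 ± 37.8 to 232 ± 9.32 CPM (SD, n = 3, log2 fold change -0.68, limma adjusted p 0.0028). Acss3, a mitochondrial acyl-CoA synthetase that acts on propionate, fell by 0.76 and Acsf3, the malonyl-CoA synthetase, by 0.71. Abat, the aminotransferase of gamma-aminobutyrate, rose from 49.9, 72.0 and 47.5 CPM under chow to 128, 137 and 154 CPM under HFD (log2 fold change 1.31, SE 0.17, limma adjusted p 0.000469). Acaa2, a thiolase of fatty acid oxidation, rose by 0.49 (limma adjusted p 0.029), a call lost without chow replicate 2 (0.0545) or 3 (0.0618) or HFD replicate 2 (0.106) or 3 (0.094). Mcee, the epimerase between the carboxylase and the mutase, had 44.6, 56.1 and 65.8 CPM in the chow libraries and 39.1, 45.3 and 43.7 CPM in the HFD libraries, and its log2 fold change of -0.36 did not pass (limma adjusted p 0.114; 0.0378 without chow replicate 1). The trifunctional protein genes Hadha (-0.08) and Hadhb (-0.02) did not pass either.

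Cofactor handling for the propionate route gave 1 lower and 1 higher gene of 11 tested, with a median log2 fold change of 0.07. The lower one was Slc5a6, the membrane carrier of biotin and pantothenate, with 64.0, 57.7 and 67.2 CPM in the chow libraries and 23.4, 20.3 and 23.1 CPM in the HFD libraries. Its fall of 1.46 on the log2 scale (SE 0.13, limma adjusted p 7.6e-05) was larger than that of any of the 10 members. Tcn2, the transport protein of cobalamin in blood, rose by 0.52 (limma adjusted p 0.0431), a call lost without chow replicate 2 (0.0591) or 3 (0.104) or HFD replicate 2 (0.0944) or 3 (0.175). Hlcs, which attaches biotin to Pcca, differed by 0.12, and the genes that load the mutase with cobalamin, Mmaa and Mmab, by -0.21 and 0.07. None of these 3 passed the test.

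Upstream, the shared entry of the branched-chain amino acids had 6 lower and 1 higher of 9 tested genes (median log2 fold change -0.87). The fallen genes with the largest changes were Ppm1k (-1.48), the phosphatase that activates the ketoacid dehydrogenase, Bcat2 (-1.34), the mitochondrial aminotransferase, and Dbt (-1.02), the core subunit of that dehydrogenase. Its subunits Bckdha and Bckdhb fell by 0.95 and 0.87, and Dld, the subunit it shares with other dehydrogenases, differed by -0.40 and did not pass (limma adjusted p 0.0665). Bcat1, the cytosolic aminotransferase, went the other way, from 17.8, 13.5 and 25.3 CPM under chow to 42.8, 61.4 and 74.0 CPM under HFD (log2 fold change 1.61, SE 0.25, limma adjusted p 0.00125). In the leucine arm 3 of 4 tested genes fell (median -0.96). Ivd, the isovaleryl-CoA dehydrogenase (-1.69) and Mccc2, the carboxyltransferase subunit of the leucine carboxylase (-1.11), were among them. Mccc1, the biotin subunit, has no row in the table used here.

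Downstream, 4 of the 7 genes that take up succinyl-CoA and succinate were lower and 0 higher (median -0.56). Suclg2, the GTP-specific subunit of succinyl-CoA ligase, fell by 1.13 on the log2 scale. Sdha, the flavoprotein of succinate dehydrogenase, fell to 49.4% of its chow mean and its iron-sulfur partner Sdhb to 66.2%, whereas Suclg1 (-0.10) and the ATP-specific subunit gene Sucla2 (0.05) did not pass. Among 11 tested acyl-CoA dehydrogenases outside the members and their electron acceptors, 4 were lower and 0 higher (median -0.28), with the largest falls in Acad10 (-1.09), Etfa (-0.85), a subunit of the electron transfer flavoprotein, and Gcdh (-0.71), the glutaryl-CoA dehydrogenase. Acads, the straight-chain relative of Acad8 and Acadsb, differed by -0.28 (limma adjusted p 0.122) and Etfdh by 0.05. Of the other biotin carboxylases, Acaca (-0.87) and Acacb (-2.32), which make malonyl-CoA, both fell. In the rest of the citric acid cycle 7 of 10 genes were lower and 1 higher (median -0.53). Idh3b (-0.79) and Mdh2 (-0.73) were among those that fell, and Idh3a (0.62), a catalytic subunit of the same isocitrate dehydrogenase as Idh3b, rose. Of 35 complex I genes 14 were lower and 0 higher (median -0.40), among them Ndufa5 (-1.08) and Ndufa2 (-0.84). The size of the Ndufa2 fall rested in part on chow replicate 3 (247 CPM, against 106 and 111 CPM in the others). Without that library the log2 fold change was -0.45. The Ndufa2 call was lost without HFD replicate 1 (limma adjusted p 0.0975), 2 (0.0982) or 3 (0.1). Ndufa5 was also highest in chow replicate 3 (110 CPM, against 53.8 and 51.3 CPM), and its call held in all 16 alternatives.

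**Figure D4:**
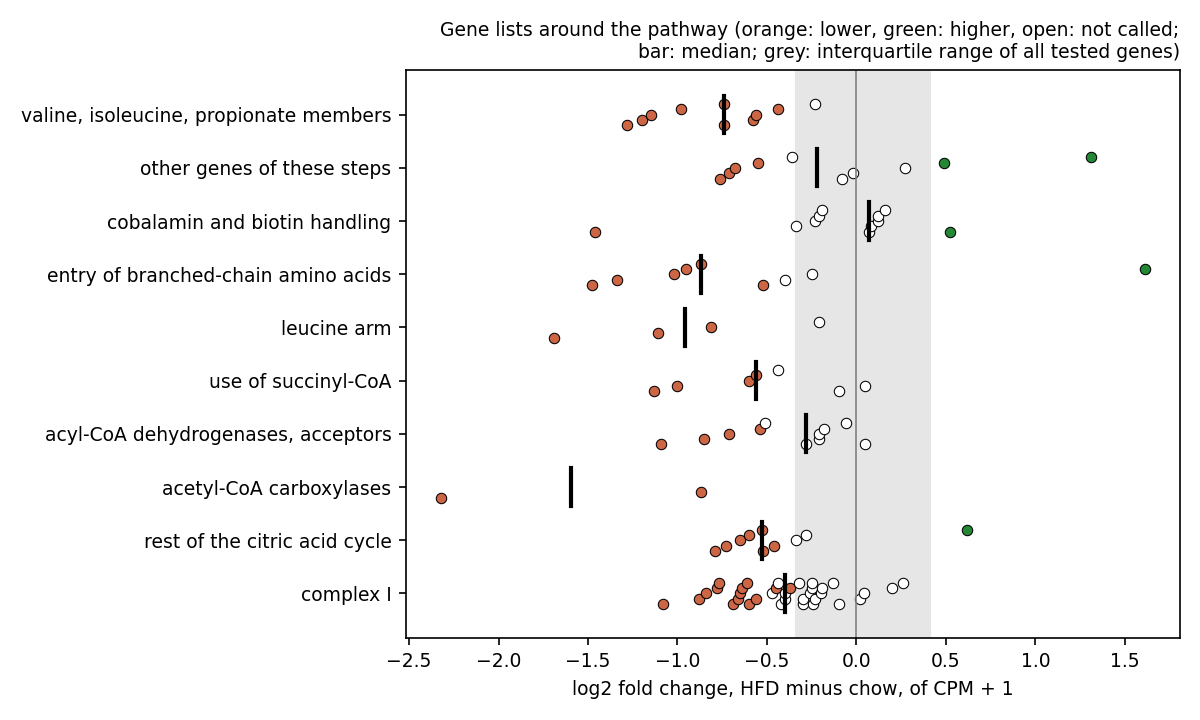
Log2 fold change of every tested gene of the 10 members and of 9 neighbouring gene lists, with bars for list medians and the interquartile range of all tested genes in grey. The members' median lies at -0.74, between those of the entry genes (-0.87) and of the genes that use succinyl-CoA (-0.56), while cobalamin and biotin handling lies at 0.07.

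By Pearson r over the 6 libraries with the members' mean standardized profile, the 5 most alike of 8504 other genes at a mean of at least 10 CPM included G3bp2, Xiap, Dbt and Gid8, with r from 0.9967 to 0.9982. Dbt belongs to the ketoacid dehydrogenase just upstream, and its libraries read 197, 244 and 231 CPM in the chow libraries and 98.4, 123 and 108 CPM in the HFD libraries. G3bp2, a stress granule protein gene, read 436, 516 and 468 CPM in the chow libraries and 280.1, 304 and 296 CPM in the HFD libraries. With 2 diet groups among 6 libraries, many genes reach such values, and the order among them rests on small differences within a diet.

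The size of the falls depends on what the libraries are scaled to, and markers of other cells moved with the diet. Libraries were also scaled so that the median deviation of the adipocyte identity genes from their own means was equal. The median of all genes then moved from -0.004 to 0.39 and that of the members from -0.74 to -0.33. The median log2 fold change of the identity genes themselves went from -0.31 to 0.1, so this scaling did not set it to 0. Under that scaling 4 members were still lower, Acadsb (-0.87), Pccb (-0.79), Echs1 (-0.74) and Aldh6a1 (-0.57). The others did not pass: Acad8 (-0.33, limma adjusted p 0.114), Hibadh (-0.33, 0.089), Hibch (-0.17, 0.452), Pcca (-0.15, 0.501) and Mut (-0.02, 0.917), and Hsd17b10 turned to 0.17 (0.624). Over their 16 alternatives the adjusted p ran from 0.00133 to 0.114 for Acad8, 0.00177 to 0.089 for Hibadh, 0.00435 to 0.452 for Hibch, 0.0069 to 0.501 for Pcca and 0.0155 to 0.917 for Mut. Acadsb, Echs1, Pccb and Aldh6a1 passed in all 16. The same scaling took the list medians to 0.19 for the other genes on or around these steps and 0.48 for cofactor handling. The medians became -0.46 for the entry genes, -0.55 for the leucine arm and -0.15 for the users of succinyl-CoA. This scaling moved those of the acyl-CoA dehydrogenases, the citric acid cycle and complex I to 0.13, -0.12 and 0.01. Of the genes named above it also ended the calls on Acat1, Acss3, Acsf3, Bckdhb, Sdhb, Gcdh, Idh3b, Mdh2, Ndufa2, Trmt10c, G3bp2, Xiap, Gid8 and Paox, and Hlcs (0.52) passed as higher.

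**Figure D5:**
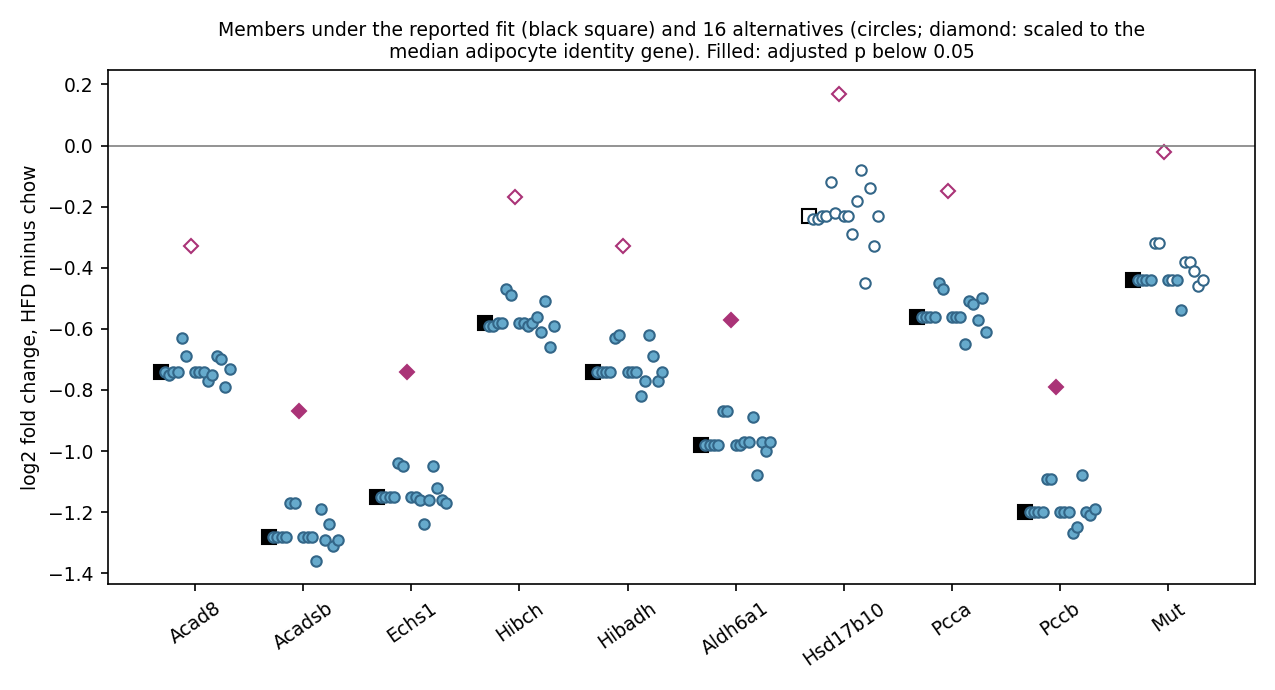
Log2 fold change of each member under the reported fit (black square) and 16 alternatives (circles, with a diamond for scaling to the median adipocyte identity gene), filled where the adjusted p was below 0.05. Acadsb, Echs1, Aldh6a1 and Pccb are filled throughout, and Mut is filled in 7 of the 16.

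Of 17 macrophage markers 16 were higher in HFD and 1, Cd14, lower, and their summed level was 166 to 180 CPM in chow and 566 to 889 CPM in HFD. Endothelial markers (9 of 10 higher) summed to 30.3 to 87.6 CPM in chow and 154 to 303 CPM in HFD, and smooth muscle and pericyte markers (7 of 8 tested higher) to 1054 to 1185 and 1499 to 1905 CPM. In chow most of the latter sum is Mcam (1025 CPM, against 901 CPM in HFD, not called), while Acta2 went from 54.8 to 504 CPM and Tagln from 9.07 to 94.5 CPM. Fibroblast and progenitor markers (4 higher and 1 lower of 12) summed to 2430 to 3815 CPM in chow and 2069 to 3871 CPM in HFD, and mesothelial markers (3 of 8 higher) to 21.2 to 34.3 and 50.9 to 151 CPM. Among markers with a row, the mesothelial Krt8 stood at the lowest value of the table in chow replicate 3. Adipocyte identity genes had 4 higher and 11 lower of 28 (median log2 fold change -0.31). In a bulk pulldown, a smaller share of adipocyte RNA and less of a transcript per adipocyte cannot be told apart, and the part of these markers in the members' falls was not tested.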

How the data were processed

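Per the labels' protocols, ribosomal RNA was removed from the pulled-down RNA, and libraries were made by tagmentation of double-stranded cDNA, which keeps no strand. Per the submitters' processing notes, HISAT2, Picard, featureCounts and edgeR were among the authors' tools, with the build mm10; their versions and settings are not stated in those notes. The deposited table holds log2 CPM for each gene, to 2 decimals. Their log2 scale was read from the values, whose anti-logs sum to 984422 to 1182123 per library. Columns were assigned to samples through diet and replicate number in their names.

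Values were turned back into CPM and log2(CPM + 1) was fitted by limma (version 3.58.1, under R 4.3.3) with a trended eBayes and two-sided tests. The fit took the 11643 of 11761 genes whose mean reached 1 CPM, comparing HFD with chow, with Benjamini-Hochberg adjustment over all of them and a threshold of 0.05. The fit was tested on simulated data. The added 1 CPM understates fold changes of genes near that level, most of all low markers, and hardly touches the members. Low values under 20 reads were whole within 0.1 of a read in every library, which gave the effective sizes, and no count test was run on log values. Members, lists and pairs were chosen with earlier results of these data known; the motifs and promoter neighbours were added later. Named genes were all members, fixed partners, and up to 3 risen and 3 fallen per pathway list, and the 5 genes most like the members. Alternatives were other pseudocounts (0.25 CPM or none), filters, scalings and weights, a replicate block, and leaving out each library. Some results that the naming rule covers, and the lymphocyte marker list, are not reported here.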

Additional observations from a re-analysis of the deposited data

How the results depend on the processing

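All 10 members kept a negative fold change under the 16 alternatives, except Hsd17b10 (0.17) with libraries scaled to the median adipocyte identity gene. Between 8 and 9 members were lower under the other 15 alternatives, none was higher in any, and the identity scaling gave 4 lower members, 4120 higher and 496 lower genes overall. Leaving out 1 library gave 1162 to 1740 lower genes, the fewest without HFD replicate 3. The share of called genes that were higher was 54.4%, against 65.3% with equal totals (median of all genes 0.10), 89.3% with the identity scaling and 46.4% with quantile normalization. The Mut call was also lost with equal totals (limma adjusted p 0.0767), quantile normalization (0.0508) and eBayes without trend (0.0523), within a range of 0.0155 to 0.917. With a replicate block, 9 members were lower, with 2594 higher and 2245 lower genes. Same-numbered libraries had correlated deviations of 0.43, 0.23 and 0.09. Of the differently numbered ones only chow replicate 3 with HFD replicate 2 was positive (0.15), the rest running from -0.39 to -0.04. The labels do not name equal numbers as pairs, and the reported fit does not pair them. Whether same-numbered libraries share an origin was not tested. The pair ratios moved by less than the spread between replicates in all 8 of their alternatives. With 3 libraries per diet, a difference as small as that of Hsd17b10 could not be resolved.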

Other observations

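Of the 10 members, 3 were found to have a gene start on the other strand within 1000 bases. Mut, which has no promoter window, could not be searched. Acadsb starts 123 bases from Ikzf5, a zinc finger gene, Acad8 starts 128 bases from Thyn1, which has no row in the table, and Aldh6a1 starts 484 bases from Lin52, of the DREAM complex. Ikzf5 had 35.5, 36.0 and 34.1 CPM in the chow libraries and 24.9, 32.7 and 31.1 CPM in the HFD libraries, and its log2 fold change of -0.25 did not pass (limma adjusted p 0.209). Lin52 had 36.5, 34.5 and 41.6 CPM in the chow libraries and 21.6, 25.8 and 20.8 CPM in the HFD libraries and fell by 0.70 on the log2 scale (limma adjusted p 0.00613; the call was lost with the identity scaling), beside a fall of 0.98 for Aldh6a1. Paox, whose span overlaps that of Echs1, fell by 0.93 (limma adjusted p 0.00244). Whether these genes share control with the members was not tested.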
